A study of Mus musculus with 6 samples.

Results

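The first of the amplicons targeted to the promoter of Cdkn1c (listed as Cdkn1C in the files) was followed CpG by CpG in mouse embryonic cardiomyocytes given negative siRNA or DNMT1 siRNA. Its members are the CpG sites of that amplicon that had at least 10 calls in each of the 6 libraries, where a call is 1 sequenced cytosine position read as C (methylated) or T (unmethylated) after bisulfite treatment. Of its 55 CpG sites, 54 met this minimum, out of 314 tested sites in all amplicons together. The single site below the minimum lies at -55 relative to the transcription start. A second entry listed under Cdkn1c had 0 calls and was not used.

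The cells were cardiomyocytes from E13.5 CD-1 mouse embryos. Ventricles were pooled by litter, and the cells were labelled with an antibody against VCAM1, a surface protein of embryonic cardiomyocytes, and sorted magnetically by the dye on that antibody. One group received negative siRNA and the other DNMT1 siRNA, a pool of 4 siRNAs, both at 12 nM, and DNA was taken 72 h after transfection. Each group had 3 libraries, numbered 1 to 3 by the labels, which also carry an unexplained "(2)" in the titles of the negative siRNA group only. The design asks whether loss of DNMT1 lowers promoter methylation in these cells. Sorting purity and Dnmt1 transcript were not analysed here, since the files hold cytosine calls only.

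Cdkn1c encodes p57Kip2, an inhibitor of cyclin-dependent kinases that holds cells out of the division cycle. The gene is imprinted: the copy inherited from the mother is expressed, and the paternal copy is kept silent and gains methylation over its promoter region in the mouse. DNMT1 is the maintenance methyltransferase, which restores methylation on newly made DNA strands at each replication, so dividing cells that lack it can lose methylation with each division. The calls were not separated by parental allele, so a level here is an average over both copies.

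The amplicon was placed on mouse chromosome 7 of GRCm38.p6, minus strand, at chr7:143461079-143461492, where its outermost listed cytosines span 414 bp. All 145 of its listed cytosines matched that sequence in position and context, and the next best placement matched 13.8% of them. The span runs from -442 to -29 relative to the start of transcript ENSMUST00000037287.7 at position 143461050, and lies upstream of the annotated transcripts, outside exons, introns and UTRs.

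The stretch with the highest methylation and the most sites called lower with DNMT1 siRNA runs from -427 to -319 (chr7:143461369-143461477, minus strand, GRCm38.p6), with the CpG dinucleotides in capitals.
Cdkn1c promoter, -427 to -319: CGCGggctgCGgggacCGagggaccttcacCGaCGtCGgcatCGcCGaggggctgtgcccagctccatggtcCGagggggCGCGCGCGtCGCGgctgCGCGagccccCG
These 109 bases hold 19 CpG, and 78.9% of them are G or C. At least 19 CG dinucleotides, which read the same on both strands, were present in 0.904% of 32851 RefSeq mouse promoter windows of the same length, whose median was 2. Each window was the first 109 bases of a promoter sequence, whereas the Cdkn1c stretch was picked and cut to begin and end at a CpG. Position and choice therefore differ, and the share is a description only.

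Sequencing gave 26793215 to 32253280 cytosine calls per library over all amplicons. The Cdkn1c region received 490677 calls in negative siRNA replicate 1, 517838 in replicate 2 and 209368 in replicate 3. It received 374959, 377324 and 322239 calls in DNMT1 siRNA replicates 1 to 3. Negative siRNA replicate 3 was thus the shallowest here, with 0.677% of its calls in this region against 0.999% to 1.72% in the other 5 libraries. Calls per tested site ranged from 11 to 7987, and 6 of the 54 sites had under 100 calls in at least 1 library. At a library's median coverage of the tested sites, 0 methylated calls would allow a level of up to 0.247% in negative siRNA replicate 1, where that median was highest. In negative siRNA replicate 3, where it was lowest, the limit was 0.563%. The calls are PCR reads without molecular identifiers, so all intervals and limits of this kind cover counting error only.

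With negative siRNA the region was methylated at a low to intermediate level along its whole length. Site means (over the 3 negative siRNA libraries) ran from 6.50% to 46.6%, with a median of 22.7%. Of the 54 sites, 17 were above 30%, 3 were above 40% and 10 were below 10%. A level above 50% was reached at 1 site in 1 library (50.6% at -382 in negative siRNA replicate 1). By comparison, 54 of 54 sites here were above 5%, against 113 of the 260 tested sites elsewhere.

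The level was not even along the promoter. Stretches chosen after the values were seen describe the shape. The 19 sites from -427 to -320, the sequence printed above, had negative siRNA means of 19.5% to 46.6%. The next 8 sites, from -300 to -248, lay between 6.76% and 12.4%. Levels then climbed over 8 sites from -242 to -189 (9.57% to 21.0%) to a second high stretch of 10 sites from -186 to -138 (18.2% to 34.9%). The 9 sites nearest to the transcription start, from -126 to -57, held 6.50% to 22.4%.

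The same profile appeared in all 6 libraries. Across the 54 sites, Pearson's r between libraries was 0.876 to 0.977 over the 15 pairs of libraries. These are correlations across sites of 1 amplicon, whose sites share reads and sequence, and they are given as a description. Of 53 pairs of neighbouring sites, 33 kept the same order in every library, as did 18 of the 28 pairs that lie within 5 bp of each other.

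**Figure D1:**
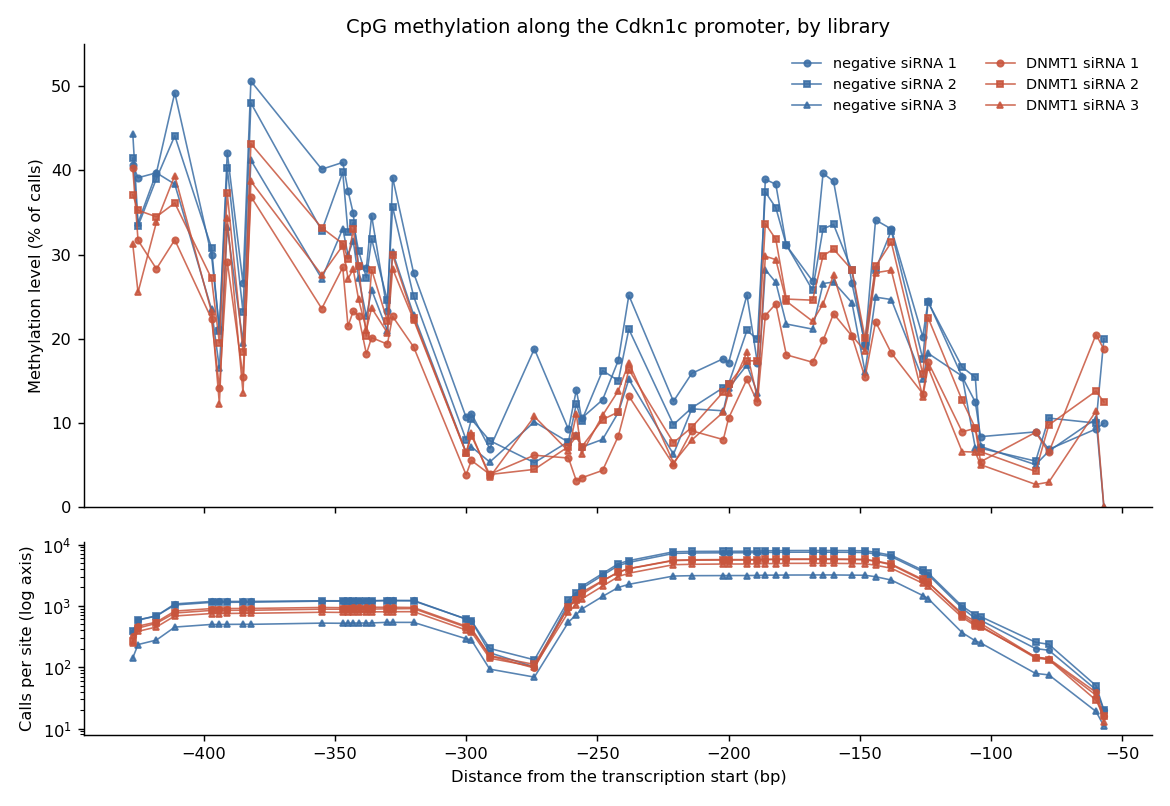
Methylation level (% of calls read as C, upper panel) and calls per site (lower panel, log axis) at the 54 CpG sites against distance from the transcription start in bp, 1 line per library. All 6 lines share the high stretch from -427 to -320, the dip below it and the second high stretch from -186 to -138, while coverage ranges from 11 to 7987 calls.

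Some of the steps between adjacent CpG were steep. In the printed sequence, the sites at -394 and -391 are 3 bp apart, yet their means over all 6 libraries were 17.4% and 36.1%, with the second higher in every library by 15 to 22 points. The sites at -385 and -382, also 3 bp apart, stood at 19.5% and 43.1%, a step of 21.4 to 25.1 points. The distal stretch ended between -320 (23.3%) and -300 (7.0%), and the second high stretch began between -189 (15.6%) and -186 (31.8%). All 6 libraries showed each of these 4 steps in the same direction.

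The base that follows the CpG went with modest differences in level. Median negative siRNA levels were 33.4% at the 7 CGA sites, 29.1% at the 13 CGG sites, 21.0% at the 27 CGC sites and 19.5% at the 7 CGT sites. The median share of methylation that remained with DNMT1 siRNA was 79.5% to 81.5% in these 4 groups. Most of the CGA sites lie in the high distal stretch, so base and position cannot be told apart here. These are descriptions of sites that share an amplicon, with no test.

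With DNMT1 siRNA, mean methylation of the Cdkn1c region was lower, but the libraries of the groups overlapped. The mean of the 54 sites was 25.2%, 23.6% and 19.4% in negative siRNA replicates 1 to 3. It was 16.6%, 20.8% and 18.3% in DNMT1 siRNA replicates 1 to 3. Negative siRNA replicate 3 lay below DNMT1 siRNA replicate 2, while the other 2 negative siRNA libraries lay above all DNMT1 siRNA libraries. The group means were 22.7% ± 2.96 (SD, n = 3) and 18.6% ± 2.09 (SD, n = 3), a difference of -4.15 points, with 81.7% of the negative siRNA level remaining. A two-sided exact permutation test over the libraries gave p = 0.2, where the smallest p that 3 against 3 allows is 0.1.

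The overlap came from negative siRNA replicate 3 and DNMT1 siRNA replicate 2. Without the former, the difference was -5.79 points with 76.2% of the level remaining, and the remaining groups did not overlap. Without the latter, the difference was -5.26 points and the groups also did not overlap. Negative siRNA replicate 3 was below both other negative siRNA libraries at 47 of the 54 sites. It was below DNMT1 siRNA replicate 2 at 36 sites, below DNMT1 siRNA replicate 3 at 19 and below DNMT1 siRNA replicate 1 at 4.

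Replicate 3 of the negative siRNA group seldom stood low in other amplicons. In the Cdkn1c region it was -4.93 points from the mean of its 2 companions, whereas in the 15 other amplicons above 20% methylation this difference ran from -4.26 to 5.76 points with a median of 1.26. It was the lowest of the negative siRNA libraries in 1 of those 15. The low coverage of this region in the same library moved with its low level, and the part of coverage in the result was not tested.

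Divided into 3 blocks of 18 sites by position, the region gave lower DNMT1 siRNA means in each block, none with separated libraries. In the first block (-427 to -328), means were 35.9%, 33.9% and 29.9% with negative siRNA and 25.0%, 30.3% and 26.9% with DNMT1 siRNA. Negative siRNA replicate 3 fell just below DNMT1 siRNA replicate 2. The difference was -5.85 points (33.3% ± 3.04 to 27.4% ± 2.66, SD, n = 3 each, exact permutation p = 0.2).

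In the middle block (-320 to -186), which holds the dip, libraries stood at 17.2%, 14.9% and 11.8% with negative siRNA and at 8.91%, 12.3% and 12.1% with DNMT1 siRNA. Here negative siRNA replicate 3 was below 2 of the DNMT1 siRNA libraries, and the difference of -3.55 points had an exact permutation p of 0.3 (n = 3 per group). The last block (-182 to -57) gave 22.4%, 21.9% and 16.6% against 16.0%, 19.9% and 16.0%. Its difference was -3.05 points (exact permutation p = 0.2, n = 3 per group), with negative siRNA replicate 3 again below DNMT1 siRNA replicate 2. Leaving out negative siRNA replicate 1 gave -2.28 points in the middle and -1.98 in the last block, and leaving out negative siRNA replicate 3 gave -4.96 and -4.91.

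**Figure D2:**
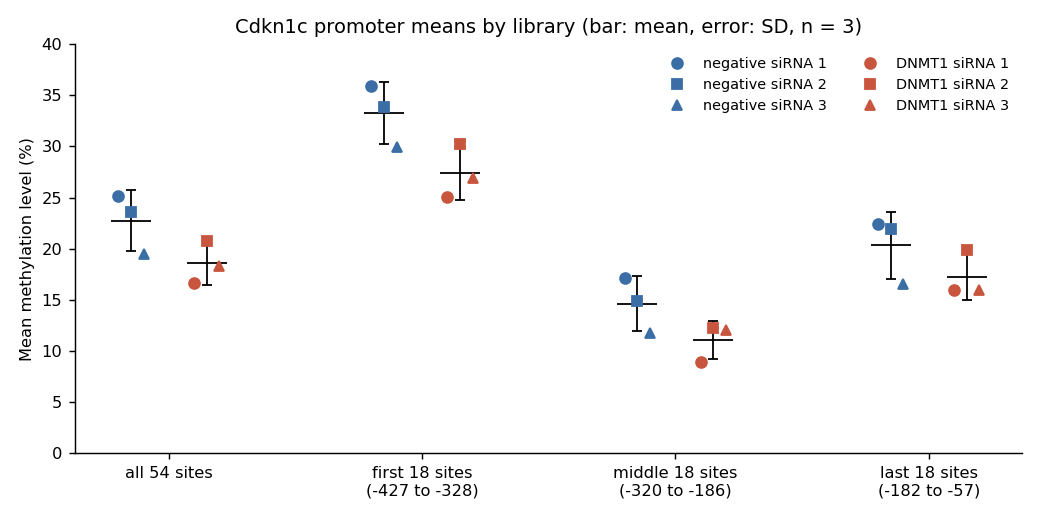
Mean methylation level (%) per library over all 54 sites and over the 3 blocks of 18 sites, with the mean of each group as a bar and its SD (n = 3) as the error. In each set negative siRNA replicate 3 sits among the DNMT1 siRNA libraries, below DNMT1 siRNA replicate 2.

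Site by site, methylation was lower with DNMT1 siRNA almost throughout. The mean over libraries was lower at 52 of 54 sites, where it was lower at 80.3% of all 314 tested sites. Shares over all 314 sites include sites at or below 5% with negative siRNA, of which the Cdkn1c region has 0. The main test was a logistic regression of methylated and unmethylated calls on group, which weighs counting error but not the spread among replicates. Calls needed an adjusted p under 0.05 (Benjamini-Hochberg over 314 sites) and a difference of pooled levels above 5 points. By this rule 22 of 54 sites were lower, against 37.6% of all tested sites, and 0 were higher (0.0% of all tested sites). The pooled differences at the 22 sites ran from -5.04 to -9.94 points with a median of -7.26. They lay at sites with negative siRNA means of 15.9% to 46.6%. Pooling weighs each library by its calls, and negative siRNA replicate 3, with the fewest calls, was the lowest of its group at most sites. With the unweighted difference of group means in place of the pooled one, 18 of the 54 sites were called, against 115 of all 314 tested sites.

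The called sites were in both high stretches. The distal stretch held 13 of its 19, the stretch from -186 to -138 held 6 of its 10, the climb between them 2 of 8, the stretch nearest to the start 1 of 9 and the dip 0 of 8. Since a site cannot be called without losing over 5 points, low sites had little room to be called. Among tested sites above 5% with negative siRNA the share called was 70.7%, of which the Cdkn1c region gave 22 of 54 and the other amplicons 96 of 113. The other methylated amplicons also stood higher to begin with, and the part of the starting level in these shares was not tested. Without a size threshold, 47 of the 54 sites were lower at an adjusted p under 0.05 (65.9% of all tested sites) and 0 were higher (7.64%).

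Replicates overlapped at most of the called sites. At 14 of the 54 sites every DNMT1 siRNA library was below every negative siRNA library, a pattern found at 43.9% of all tested sites. Among sites above 5% with negative siRNA, it was found at 96 of the 113 in other amplicons. Of the 22 called sites, 8 had this separation and 14 did not, where 30.6% of all tested sites were both called and separated. Without negative siRNA replicate 3, 32 sites were called and 43 were separated, beside 38.9% and 55.4% of all tested sites in the same 5 libraries. Without DNMT1 siRNA replicate 2, 35 were called (41.1% of all tested sites) and 32 were separated (55.1%). Without DNMT1 siRNA replicate 1, 14 were called (33.8% of all tested sites).

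No site was called once the spread among replicates entered the test. A quasi-binomial F test, which widens the error by the observed spread, called 0 of 54 sites (19.4% of all tested sites), and 7 were lower at an unadjusted p under 0.05 (37.3%). limma, run on log2 of methylated over unmethylated calls, also called 0 (23.2%), with 5 lower at an unadjusted p under 0.05 (40.1%). The spread among libraries of a group, as a multiple of the counting variance, had a median of 6.53 over the 54 sites. At the 113 other sites above 5% that multiple was 39.2, but their median difference was -12.2 points against -4.70 here. For the same spread in points, the multiple rises with coverage. In points, the median SD was 3.13 with negative siRNA and 3.23 with DNMT1 siRNA at the 54 sites. At the 113 other sites it was smaller, 2.03 and 2.78.

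**Figure D3:**
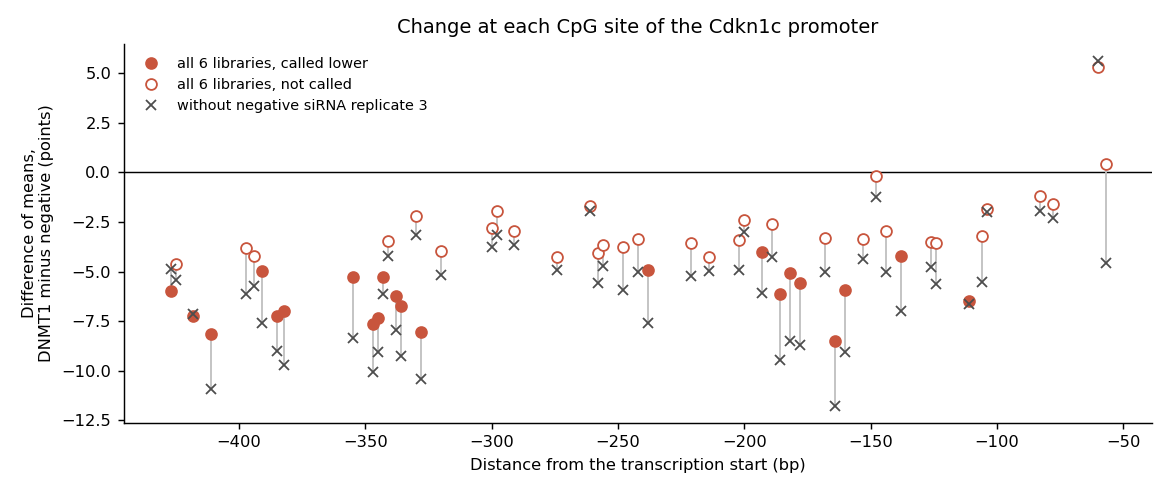
Difference of the group means (DNMT1 siRNA minus negative siRNA, points) at each of the 54 sites against distance from the transcription start in bp, filled where the site was called lower, with crosses for the same difference without negative siRNA replicate 3. Only the 2 sites at -60 and -57 lie above 0, and most crosses lie below their circles.

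The 8 called sites with separated libraries include 7 in the printed sequence. At -418 (chr7:143461468), the negative siRNA libraries gave 39.7%, 39.0% and 39.7% and the DNMT1 siRNA libraries 28.3%, 34.5% and 33.8%. The groups were separated, and the pooled difference was -7.34 points (logistic regression, adjusted p = 2.74e-05, quasi-binomial adjusted p = 0.0741). At -385 (chr7:143461435), levels were 26.6%, 23.2% and 19.6% against 15.5%, 18.5% and 13.6%. Here 68.7% of the methylation remained, with a pooled difference of -8.01 points (logistic regression, adjusted p = 5.11e-13, quasi-binomial adjusted p = 0.079).

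In the dense CG run of the same sequence, -347 (chr7:143461397) gave 40.9%, 39.8% and 33.1% with negative siRNA and 28.5%, 31.3% and 31.1% with DNMT1 siRNA. Its neighbour at -345 gave 37.6%, 32.7% and 30% against 21.5%, 29.5% and 27.2%. The groups were separated at both, at -345 by less than 1 point between negative siRNA replicate 3 and DNMT1 siRNA replicate 2. At -338 (chr7:143461388), levels were 28.4%, 27.3% and 22.7% against 18.2%, 20.3% and 21.1%, and this site had the lowest quasi-binomial adjusted p of the 54 sites, 0.0548. At -328, levels were 39.1%, 35.6% and 30.3% against 22.7%, 29.9% and 28.3%, again with less than 1 point between those libraries. Negative siRNA replicate 3 was the lowest of its group at each of these 4 sites.

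At -427 (chr7:143461477), the first tested site, replicate 3 was instead the highest of the negative siRNA group. Its levels were 40.6%, 41.5% and 44.4% against 40.3%, 37.1% and 31.2%, at 142 to 386 calls, with Wilson intervals at the 95% level of up to 8.06 points on either side. The separation there was smaller than that interval. So it was at the other called sites with separated libraries, whose widest intervals were 3.47 to 5.72 points on either side. At -427, the pooled difference was -5.04 points (logistic regression, adjusted p = 0.0433). This call was the least stable of the 8. It was lost without negative siRNA replicate 2 (adjusted p = 0.0801 by logistic regression) or 3 (0.088), and without DNMT1 siRNA replicate 2 (0.0593) or 3, where the difference was -2.74 points (0.341).

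Besides -427, the highest sites of the region were -382 and -411, both called lower with overlapping libraries. At -382 (chr7:143461432), levels were 50.6%, 48.0% and 41.2% with negative siRNA and 36.9%, 43.2% and 38.7% with DNMT1 siRNA. At -411, they were 49.2%, 44.1% and 38.4% against 31.8%, 36.1% and 39.4%. In each case negative siRNA replicate 3 was below 1 DNMT1 siRNA library. The pooled differences were -8.33 points at -382 and -9.71 points at -411.

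The largest pooled difference of the region, -9.94 points (-8.48 between unweighted group means), was at -164 (chr7:143461214) in the second high stretch. Its levels were 39.7%, 33.1% and 26.6% with negative siRNA and 19.8%, 29.9% and 24.1% with DNMT1 siRNA, at 3192 to 7987 calls. Negative siRNA replicate 3 was below DNMT1 siRNA replicate 2, and the spread among libraries was 85.5 times the counting variance. The logistic regression gave an adjusted p of 9.68e-92 and limma one of 0.193. The size rested on replicate 1 of each group: the pooled difference was -6.55 points without negative siRNA replicate 1 and -7.36 without DNMT1 siRNA replicate 1, smaller in both cases than at -347 (-7.52 and -7.87). Not far away, -148 gave 19.4%, 19.1% and 16.1% against 15.4%, 20.1% and 18.5%, with 99.0% remaining. This well covered site had a pooled difference of -0.716 points (logistic regression, adjusted p = 0.11).

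The stretch nearest to the start and the dip each held a site that kept a smaller share of its methylation than most of the 54 sites. At -111 (chr7:143461161), the 1 called site of the stretch nearest to the start, levels were 15.5%, 16.6% and 15.6% against 8.96%, 12.7% and 6.62%. The groups were separated and 59.2% of the methylation remained (pooled difference -6.52 points, limma adjusted p = 0.0543). At -291 (chr7:143461341) in the dip, levels were 6.98%, 7.92% and 5.38% against 3.92%, 3.90% and 3.57%, at 93 to 202 calls. This was the 1 site of the 54 with a limma adjusted p under 0.05 (0.0277, quasi-binomial 0.199), where 28.3% of all tested sites were lower by that test without a size threshold. Its pooled difference of -3.26 points was below the size threshold, and 56.2% remained, the lowest share of the 54 sites.

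Several other low sites nearer to the start were not called. At -104, levels were 8.39%, 7.01% and 7.23% against 5.41%, 6.61% and 5.07%, separated but with a logistic regression adjusted p of 0.0525. At -83 they were 8.96%, 5.49% and 5.06% against 8.90%, 4.26% and 2.72%, overlapping between groups. The site at -60 (chr7:143461110) was the 1 site of the 54 at which every DNMT1 siRNA library was above every negative siRNA library (1.59% of all tested sites). It gave 9.30%, 10.0% and 10.5% against 20.5%, 13.8% and 11.4% at 19 to 50 calls, with a logistic regression adjusted p of 0.243. Its pooled difference was 5.71 points, and 2.68 without DNMT1 siRNA replicate 1. Last, -57 gave 10.0%, 20% and 0.0% against 18.8%, 12.5% and 0.0% at 11 to 20 calls, where a difference of this size was not detectable.

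Cytosines outside CpG give the background, since they are largely unmethylated in differentiated cells and read as C mainly where bisulfite conversion failed. Over 88 such cytosines of the region, 0.308%, 0.313% and 0.392% of calls were C in negative siRNA replicates 1 to 3, and 0.282%, 0.326% and 0.306% in DNMT1 siRNA replicates 1 to 3. The group means were 0.338% ± 0.0474 and 0.305% ± 0.0222 (SD, n = 3, exact permutation p = 0.4). Replicate 3 of the negative siRNA group was the highest, with a 95% Wilson interval of 0.361% to 0.427%. The negative siRNA means of the 54 CpG sites, 6.50% and higher, were all above this background.

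Libraries of the groups overlapped in the Cdkn1c region but were separated in most of the other methylated amplicons, a difference between amplicons that was not tested. The mean of the other 15 amplicons above 20% was 59.1%, 57.5% and 59.7% with negative siRNA and 42.3%, 47.6% and 45.3% with DNMT1 siRNA. Those groups were separated, and 76.7% of the methylation remained. In 14 of the 15 amplicons the libraries were separated, the exception being the first Myh7b amplicon. The share remaining was 68.8% to 86.4% in the 15, with a median of 76.6%, and 1 of them (the first Tnnc1 amplicon) kept a larger share than the 81.7% of Cdkn1c.

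The level of Cdkn1c relative to those 15 amplicons, as log2 of the ratio, was -1.23, -1.29 and -1.62 with negative siRNA. It was -1.35, -1.19 and -1.30 with DNMT1 siRNA. The groups overlapped, and the difference of 0.10 on the log2 scale had an exact permutation p of 0.7 (n = 3 per group). Without negative siRNA replicate 3 the difference was -0.02, so its direction rested on that library.

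**Figure D4:**
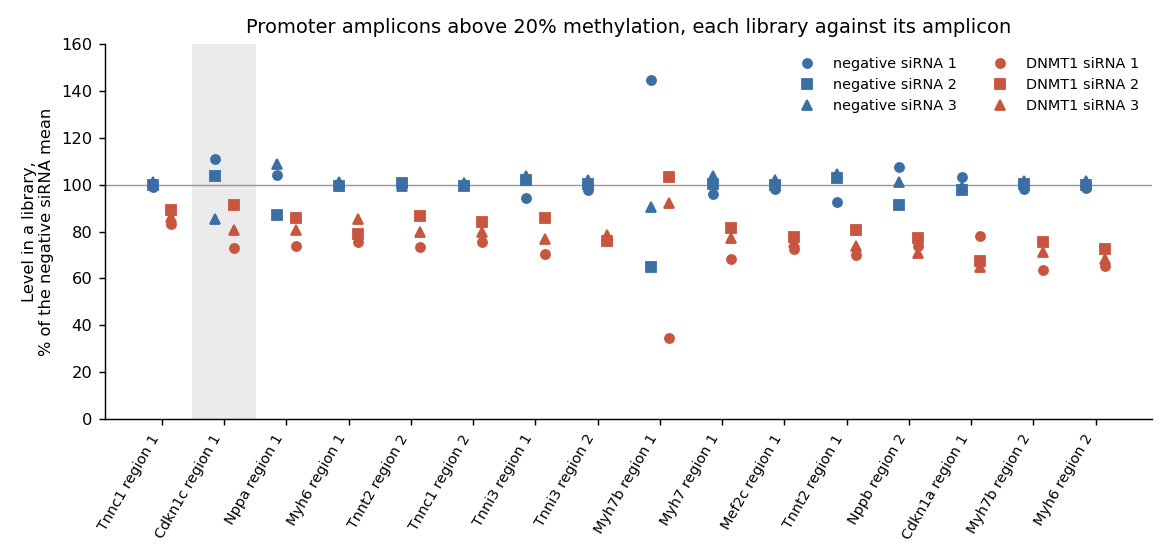
Level of each library as % of the negative siRNA mean of the same amplicon, for the 16 promoter amplicons above 20% methylation, with Cdkn1c shaded. The first Cdkn1c and the first Myh7b amplicon are those whose negative siRNA and DNMT1 siRNA libraries overlap.

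The promoters of the related inhibitors gave other pictures. Cdkn1a encodes p21 and Cdkn1b encodes p27, the other members of the Cip/Kip family. The first Cdkn1a amplicon (5 sites) stood at 62.4%, 58.8% and 59.7% with negative siRNA and at 47.0%, 40.8% and 39.1% with DNMT1 siRNA, separated by -18.0 points. The first Cdkn1b amplicon (24 sites) had site means of 0.459% ± 0.182 and 0.432% ± 0.261 (SD, n = 3). These were close to the non-CpG share of the Cdkn1c region, and the background of the Cdkn1b amplicon itself is not given here. The amplicon nearest in level was the first of Myh7b (3 sites), a myosin heavy chain gene, at 29.3% ± 11.9 and 22.5% ± 10.8, also with overlapping libraries.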

How the data were processed

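Genomic DNA of 6 libraries was bisulfite-converted by the authors, amplified over 2 promoter regions for each of 15 genes (30 amplicon entries) and sequenced in 1 MiSeq run. They aligned reads with Bismark and Bowtie2 after FastQC. The paper describes a reference made of the amplicon sequences, whereas the processing notes name mm10. Versions and the treatment of PCR duplicates are not given in the sources used here. The deposited files hold, per cytosine, the coverage (a count of calls) and the percent that were C or T, with replicates not pooled.

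Methylated counts were rebuilt from percent and coverage. The amplicon was placed on GRCm38.p6 by sliding its listed cytosines along the gene and 20000 bp on either side. Sites needed 10 calls in every library. A logistic likelihood-ratio test without overdispersion, with Benjamini-Hochberg adjustment, stood in for the methylKit package named by the study. That package is not installed here and its test is not given in the sources used here, so its calls can differ. For this amplicon the paper lists the same sites as lower. It also lists the site at -60 as higher, which was not called here. For means, exact permutation tests (two-sided) went over the 20 relabellings. Also run were a quasi-binomial F test (dispersion at least 1), limma 3.58.1 with 1 added to the counts, Fisher's exact test, other coverage minima (100 or 1), thinning to 100 calls, correction for the non-CpG share, a replicate block and leaving out each library. Python 3.11.15, scipy 1.17.1 and R 4.3.3 were used, and the tests were checked on simulated data. Depth per library was 26793215 to 32253280 calls in all amplicons.

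The members and lists were chosen with earlier results of these data known. Named sites were fixed by rule: the 6 largest pooled drops, the 3 smallest drops or rises, the 3 highest and 3 lowest negative siRNA means, sites passing the quasi-binomial test (0 did), and called sites with separated libraries. Sites of the steps between neighbours were chosen after their values were seen. Nothing says that the replicates came from separate litters, so p-values may measure technical spread only.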

Additional observations from a re-analysis of the deposited data

How the results depend on the processing

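The main test called 22 sites lower (118 of all 314 tested sites, whose counts follow in brackets). The number was 0 by the quasi-binomial F test (61), 0 by limma (73) and 0 by limma with the replicate block (43). It was 0 with a threshold of 10 points (74), 6 after drawing each site down to 100 calls (88) and 47 with no size threshold (207). When each library was left out in turn, it ran from 14 (106) without DNMT1 siRNA replicate 1 to 35 (129) without DNMT1 siRNA replicate 2. With the unweighted difference of group means it was 18 (115). The logistic regression with replicate block called 21 (117 of all tested sites), without -427 (adjusted p = 0.0698). The replicate numbers were not shown to pair the libraries: deviations of same-numbered libraries from their group means had r of -0.374, -0.0792 and 0.0127 over 167 sites. The mean difference was -2.93 to -5.79 points when leaving out each library, and -4.52 to -7.51 in the first, -2.28 to -4.96 in the middle and -1.98 to -4.91 in the last block. The relative level reversed to -0.0233 (log2) without negative siRNA replicate 3, the lowest value on leaving out each library, and the highest was 0.17. The unweighted non-CpG difference was -0.0795 points. Among named sites, -148 rose by 5.33 points after drawing down and by 0.657 without DNMT1 siRNA replicate 1 (leave-one-out range -1.85 to 0.657), and -57 rose by 4.66 without negative siRNA replicate 2 and by 3.86 without DNMT1 siRNA replicate 3 (range -4.87 to 4.66). The cause of these changes was not tested. Coverage limits the sites nearest to the start, and 3 libraries per group limit all p-values over libraries.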

Other observations

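The CpG at -55 (chr7:143461105), left out for its coverage of 9 to 14 calls, was listed at 0.0%, 27.3% and 11.1% with negative siRNA and at 35.7%, 27.3% and 10.0% with DNMT1 siRNA. It was tested only with a coverage minimum of 1 call. Of the 55 sites then tested, 22 were called lower (118 of all tested sites) and 0 higher (0 of all tested sites).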
